A study of Mus musculus with 2 samples.

Results

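The genes described here are the voltage-gated sodium, potassium and calcium channel genes of the mouse, with the other potassium channel genes and their accessory subunits. They were chosen by symbol (Scn with a number and the letter a or b, and every symbol that starts with Kcn or Cacn). Of 32285 genes in the matrices, 139 had such a symbol, and the 99 with at least 20 unique molecular identifiers (UMIs, counted transcript molecules) over both libraries were used. Kcna1, Kcnk6 and Kcns2 lay just inside that limit with 20 UMIs each, and Kcnrg with 18 and Kcnu1 with 17 lay just outside. The symbols Kcnq1ot1, Kcnmb4os2, Kcnd3os and Kcnab3os also matched and name RNA genes, not channel subunits.

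The data are single-cell RNA counts from peripheral retina of mouse embryos at E13.5, a stage at which the first retinal neurons are born. Mice carried α-Cre, a Cre transgene active in the peripheral retina, and a TdTomato reporter (α-Cre;Td), and cells with TdTomato fluorescence were sorted after papain digestion. A pool of 3 embryos gave the albino library, labelled with the strain Swizz ICR, and another pool of 3 the library titled pigmented. The strain given for that second library is Tyrc2j, known as an albino allele of tyrosinase, so its label and title conflict, and the titles were followed. Strain, pigmentation, pool of embryos and library differ together and cannot be told apart. The pools also differed in sex: 96.0% of albino and 29.3% of pigmented cells carried Xist without Y-linked UMIs.

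The albino matrix held 3676 barcodes and the pigmented matrix 6089, and 8 barcodes occurred in both. After filtering, 3457 albino cells (median 11175 UMIs) and 5737 pigmented cells (median 10340 UMIs) remained. Cells were clustered without the channel genes and clusters were named from marker lists. Retinal ganglion cell (RGC)-like cells numbered 687 albino and 556 pigmented, amacrine or horizontal-like cells 76 and 140, and photoreceptor-like cells 172 and 339. Neurogenic-like cells, which carry Atoh7, Neurog2 and Notch ligand genes, numbered 686 albino and 1234 pigmented. Ciliary margin zone (CMZ)-like cells, from the rim of the optic cup, numbered 271 and 630, and retinal progenitor cell (RPC)-like cells 872 and 1523. Each group is a single library, so differences have no replicate check and no p-value is given. Each class level is given as UMIs per 1000000 UMIs of that class (CPM), and intervals are exact 95% intervals that cover counting error only. Counts are of 3′ ends, 1 per molecule, and are not scaled by gene length.

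Voltage-gated sodium channels open on depolarisation and carry the upstroke of the action potential, and voltage-gated potassium channels bring the membrane back to rest. Voltage-gated calcium channels couple depolarisation to transmitter release and gene transcription, with auxiliary subunits that set their number at the surface. K2P (tandem pore domain) and inwardly rectifying (Kir) potassium channels hold the resting potential of both dividing and excitable cells. In the retina, RGCs are the neurons that send action potentials to the brain, whereas photoreceptors signal with graded potentials.

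Promoter sequences, 250 bases before to 50 after the annotated start (RefSeq, GRCm38.p6), were found for 71 of the 99 genes. Those of Scn9a, Cacng2, Kcnd3 and Kcnk1 are shown as examples, picked after values were seen, of genes whose level was highest in RGC-like, amacrine or horizontal-like, photoreceptor-like and RPC-like cells in both libraries, 1 for each in that order. Capitals mark CG dinucleotides, and each sequence runs 5′ to 3′ on the gene's own strand. The annotation used below for exon overlaps places the starts of Cacng2 (78120028), Kcnd3 (105452330) and Kcnk1 (125995170) outside these windows.
Scn9a (chr2:66634913-66635212, minus strand): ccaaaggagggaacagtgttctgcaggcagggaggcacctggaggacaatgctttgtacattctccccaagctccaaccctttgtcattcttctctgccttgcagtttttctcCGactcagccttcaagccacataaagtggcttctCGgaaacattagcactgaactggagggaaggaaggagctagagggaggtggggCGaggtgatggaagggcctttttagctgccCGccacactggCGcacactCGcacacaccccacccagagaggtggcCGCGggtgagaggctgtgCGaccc
Cacng2 (chr15:78119231-78119530, minus strand): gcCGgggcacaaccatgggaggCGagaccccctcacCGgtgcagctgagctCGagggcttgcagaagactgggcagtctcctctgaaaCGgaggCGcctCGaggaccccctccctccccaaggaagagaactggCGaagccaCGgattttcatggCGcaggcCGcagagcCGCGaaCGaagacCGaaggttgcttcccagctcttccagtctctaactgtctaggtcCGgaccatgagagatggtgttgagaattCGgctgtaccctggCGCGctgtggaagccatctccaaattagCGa
Kcnd3 (chr3:105451640-105451939, plus strand): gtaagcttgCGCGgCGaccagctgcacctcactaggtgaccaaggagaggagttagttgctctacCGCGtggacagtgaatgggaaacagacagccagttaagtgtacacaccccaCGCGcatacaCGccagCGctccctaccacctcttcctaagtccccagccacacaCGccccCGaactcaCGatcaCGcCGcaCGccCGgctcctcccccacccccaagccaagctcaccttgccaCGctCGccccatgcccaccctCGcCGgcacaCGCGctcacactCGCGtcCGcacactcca
Kcnk1 (chr8:125994852-125995151, plus strand): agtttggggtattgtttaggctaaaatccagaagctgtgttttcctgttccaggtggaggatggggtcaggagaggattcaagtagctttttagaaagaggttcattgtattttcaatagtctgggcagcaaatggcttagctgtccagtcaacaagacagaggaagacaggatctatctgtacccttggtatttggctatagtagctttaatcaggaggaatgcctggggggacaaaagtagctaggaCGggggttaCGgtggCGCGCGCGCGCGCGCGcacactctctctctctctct
The windows hold 9 CG dinucleotides for Scn9a, 20 for Cacng2, 25 for Kcnd3 and 10 for Kcnk1. As many or more stood in 45.8%, 26.5%, 18.4% and 43.5% of all 32851 promoter windows, in the same order of genes. The median was 16 for the promoters of genes that were higher in RGC-like than in RPC-like cells (47 promoters of 30 genes), 5 for those of genes that were lower (13 promoters of 8 genes) and 7 over all promoters. Promoters of 1 gene can overlap, so these are descriptions of windows and not of independent genes. The E-box letters CAGCTG, which read the same on both strands, were in the windows of 9 of the 30 higher genes, 5 of the 8 lower genes and 18.3% of the 27025 genes in the table. The left part of the RE1 motif, TTCAGCACC, searched on both strands, was in 0 of the 101 channel gene windows and in 0.371% of all windows. A window without these letters says nothing about the factor.

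RGC-like cells were set against RPC-like cells to show which channel genes the first projection neurons carry. Sodium channel genes, N-type and T-type calcium channel genes and delayed-rectifier and ELK-type potassium channel genes were higher in RGC-like cells, and the K2P gene Kcnk1 and the L-type gene Cacna1d were lower. Of the 99 genes, 72 had at least 20 UMIs over both classes and both libraries. A gene was called when its ratio, with 1 UMI added to each sum, passed 2-fold in the same direction in both libraries. By that rule 41 were higher and 11 lower, where 15.4% of all 13993 genes were higher and 21.3% lower. With 1 CPM added to each level instead, 34 were higher and 8 lower, against 12.9% and 17.1% of all genes. The median log2 ratio of the 72 genes was 1.42 in the albino and 1.84 in the pigmented library, and that of all genes -0.16 and -0.20. Summed over all channel subunit genes, the level was 902 CPM in albino and 873 CPM in pigmented RGC-like cells, against 486 CPM in albino and 506 CPM in pigmented RPC-like cells.

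**Figure D1:**
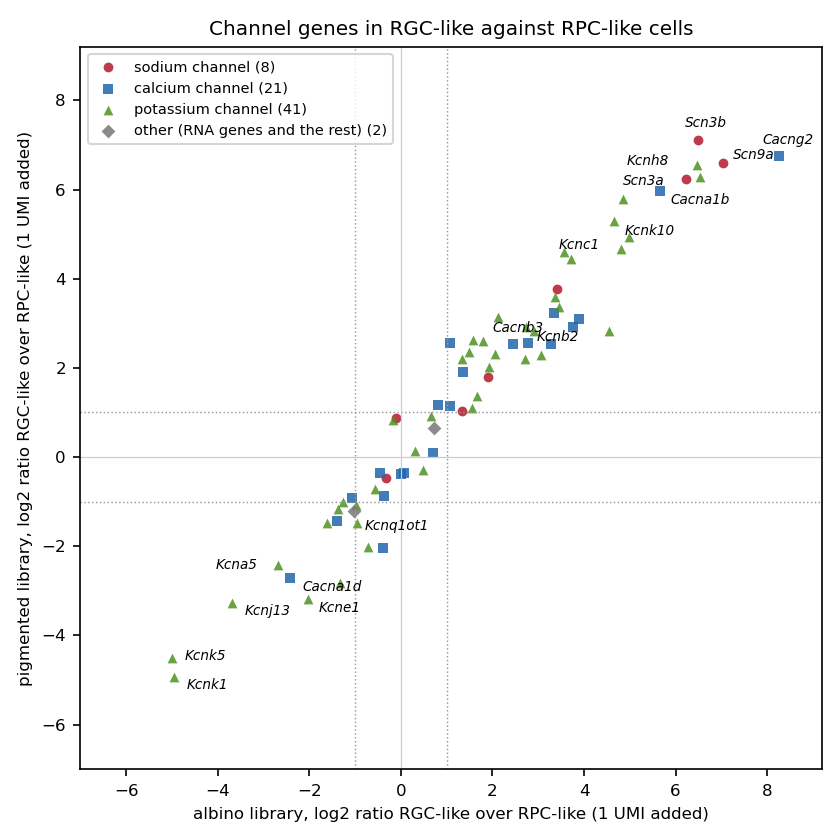
Each point is 1 of the 72 measured channel genes, with the log2 ratio of RGC-like over RPC-like cells in the albino library on the x axis and in the pigmented library on the y axis. Dotted lines mark 2-fold, and Scn9a, Scn3a, Kcnh8 and Cacng2 lie far above in both libraries while Kcnk1 and Kcnk5 lie far below.

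Among the sodium channel pore genes, 5 of the 6 measured were higher in RGC-like cells. Scn3a, which encodes Nav1.3, a channel typical of immature neurons, stood at 92.7 CPM in albino and 88.8 CPM in pigmented RGC-like cells, against 1.14 CPM in albino and 1.12 CPM in pigmented RPC-like cells. The ratio was 81.3 (45.2 to 163) in the albino and 79.4 (49.9 to 135) in the pigmented library. The order of the next classes was the same in both libraries, with 28.6 CPM in albino and 20.99 CPM in pigmented amacrine or horizontal-like cells, 12.2 CPM in albino and 14.6 CPM in pigmented photoreceptor-like cells and 3.61 CPM in albino and 4.47 CPM in pigmented neurogenic-like cells. After each cell was thinned to 5800 UMIs, 38.0% of albino and 34.5% of pigmented RGC-like cells carried a Scn3a UMI (66.1% and 62.6% before thinning), against 0.254% of albino and 0.651% of pigmented RPC-like cells (1.26% and 1.12%). Mesenchyme-like cells, which are not neurons, gave a thinned share for Scn3a of 3.36% in albino and 3.20% in pigmented cells, before thinning 6.15% and 5.93%. The 12 RGC markers, all detected there, summed to 755 CPM in albino and 907 CPM in pigmented mesenchyme-like cells. In RPC-like cells they summed to 84.2 CPM in albino and 61.0 CPM in pigmented cells. Their part in the Scn3a share of mesenchyme-like cells was not tested. Median depths were 14478 and 14261.5 UMIs in albino and pigmented RGC-like cells, against 12684 and 13267.5 UMIs in albino and pigmented mesenchyme-like cells.

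Scn9a encodes Nav1.7, best known from peripheral sensory neurons. It had 40.6 CPM in albino and 41.8 CPM in pigmented RGC-like cells, against 0.207 CPM in albino and 0.373 CPM in pigmented RPC-like cells, a ratio of 196 (53.9 to 1622) in the albino and 112 (50.998 to 308) in the pigmented library. Outside RGC-like cells Scn9a was low in both libraries, with 6.35 CPM in albino and 2.74 CPM in pigmented amacrine or horizontal-like cells, the next highest class. The exons of Scn9a overlap those of a gene model on the other strand, and the sources used here do not say whether reads were counted by strand. The pore genes Scn2a (Nav1.2) and Scn8a (Nav1.6), both found at the axon initial segment of central neurons, differed in pattern. Scn2a had 12.1 CPM in albino and 10.8 CPM in pigmented RGC-like cells, against 1.04 CPM in albino and 0.746 CPM in pigmented RPC-like cells. Scn8a was spread more widely, with 17.3 CPM in albino and 15.01 CPM in pigmented RGC-like cells, 22.2 CPM in albino and 18.3 CPM in pigmented amacrine or horizontal-like cells and 24.5 CPM in albino and 26.9 CPM in pigmented photoreceptor-like cells, against 6.84 CPM in albino and 7.33 CPM in pigmented RPC-like cells. The RGC-like ratio of Scn8a was 2.53 (1.897 to 3.41) in the albino and 2.05 (1.58 to 2.66) in the pigmented library, and Scn8a was not called with 1 CPM added.

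Of the accessory beta subunit genes, Scn3b was higher together with the pore genes. Its level was 18.5 CPM in albino and 17.1 CPM in pigmented RGC-like cells, against 0.104 CPM in albino and 0.0622 CPM in pigmented RPC-like cells, where RPC-like cells of each library held 1 UMI. Scn2b stayed low in every class, with 0.5801 and 1.35 CPM in albino and pigmented RGC-like cells and 1.17 and 2.53 CPM in albino and pigmented CMZ-like cells, where it was highest of the 6 classes.

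Voltage-gated potassium channel pore genes were split between the classes, with 8 higher, 3 lower and 0 uncalled of the 11 measured in RGC-like against RPC-like cells. Kcnc1 (Kv3.1), a channel of fast repolarisation, had 5.705 CPM in albino and 6.15 CPM in pigmented RGC-like cells, against 0.104 CPM in albino and 0.186 CPM in pigmented RPC-like cells. Kcnb2 (Kv2.2), a delayed rectifier, had 11.7 CPM in albino and 10.7 CPM in pigmented RGC-like cells, against 1.66 CPM in albino and 1.37 CPM in pigmented RPC-like cells, a ratio of 7.05 (4.17 to 12.7) in the albino and 7.83 (4.86 to 13.1) in the pigmented library. Kcnb2 was uncalled in RGC-like cells against amacrine or horizontal-like and against photoreceptor-like cells. Kcna5 (Kv1.5) and Kcnc2 (Kv3.2) were among the lower genes. Kcna5 had 0.387 CPM in albino and 0.492 CPM in pigmented RGC-like cells, against 3.01 CPM in albino and 3.23 CPM in pigmented RPC-like cells, and Kcnc2 1.16 CPM in albino and 1.11 CPM in pigmented RGC-like cells, against 3.73 CPM in albino and 3.36 CPM in pigmented RPC-like cells.

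The potassium channel genes Kcnh8 and Kcnh4, of the ELK type, were higher in RGC-like cells. Kcnh8 had 27.7 CPM in albino and 29.2 CPM in pigmented RGC-like cells, against 0.207 CPM in albino and 0.249 CPM in pigmented RPC-like cells, a ratio of 133 (36.6 to 1106) in the albino and 117 (45.2 to 434) in the pigmented library. Kcnh4 had 2.901 CPM in albino and 3.32 CPM in pigmented RGC-like cells and 0 UMIs in RPC-like cells of either library, so the ratio was at least 9.33-fold in the albino and at least 17.8-fold in the pigmented library (against a floor of 3 UMIs per library). Kcnh2 (ERG1) did not follow them: it was uncalled, at 13.3 CPM in albino and 16.4 CPM in pigmented RGC-like cells, against 32.2 CPM in albino and 32.9 CPM in pigmented RPC-like cells. The ERG-type gene Kcnh7 (ERG3) was higher in RGC-like cells, with log2 ratios of 2.44 in albino and 2.54 in pigmented cells with 1 CPM added.

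Among accessory subunits, Kcnab1 and Kcnab2 (Kv beta subunits) and the Kv4 partners Kcnip1 and Kcnip3 were higher in RGC-like cells. Kcnab1 had 9.38 CPM in albino and 6.89 CPM in pigmented RGC-like cells, against 1.04 CPM in albino and 1.37 CPM in pigmented RPC-like cells, and Kcnab2 6.19 CPM in albino and 9.35 CPM in pigmented RGC-like cells, against 2.38 CPM in albino and 1.99 CPM in pigmented RPC-like cells. Kcnab2 shares exon sequence on the same strand with a gene model, so its counts are uncertain. Of the Kcne genes, Kcne1, a partner of Kcnq1, was lower in RGC-like cells, with 0.387 CPM in albino and 0.123 CPM in pigmented RGC-like cells, against 1.87 CPM in albino and 2.18 CPM in pigmented RPC-like cells. Kcne1l, which lies on chromosome X, was abundant and uncalled, at 39.5 CPM in albino and 47.1 CPM in pigmented RGC-like cells, against 24.9 CPM in albino and 25.05 CPM in pigmented RPC-like cells.

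Kcnk1 encodes the K2P channel TWIK-1. It was among the lowest of the 72 genes in RGC-like relative to RPC-like cells, with 4.54 CPM in albino and 5.29 CPM in pigmented RGC-like cells, against 144 CPM in albino and 165 CPM in pigmented RPC-like cells, a ratio of 0.0315 (0.02303 to 0.0421) in the albino and 0.03203 (0.0231 to 0.0433) in the pigmented library. CMZ-like and neurogenic-like cells lay between, with 64.98 CPM in albino and 60.004 CPM in pigmented CMZ-like cells and 12.4 CPM in albino and 15.7 CPM in pigmented neurogenic-like cells. Photoreceptor-like cells were about as low as RGC-like cells. With 1 CPM added, their log2 ratio to RPC-like cells was -4.78 in the albino and -4.23 in the pigmented library. That of RGC-like cells was -4.71 in the albino and -4.72 in the pigmented library. After thinning, 54.4% of albino and 56.3% of pigmented RPC-like cells carried a Kcnk1 UMI (71.4% and 73.01% before), against 3.36% of albino and 4.57% of pigmented mesenchyme-like cells (7.69% and 13.1% before). Mesenchyme-like cells also held all 10 RPC markers, with a sum of 609 CPM in albino and 985 CPM in pigmented cells. Surface ectoderm-like cells also carried Kcnk1, at 46.3 CPM in albino and 38.1 CPM in pigmented surface ectoderm-like cells. In that class the 10 RPC markers, all of them detected, summed to 1966 CPM in albino and 2199 CPM in pigmented cells. The same markers summed to 7761 CPM in albino and 8203 CPM in pigmented RPC-like cells. The 12 RGC markers, also all detected, summed to 4160 CPM in albino and 2906 CPM in pigmented cells of that class, against 84.2 CPM in albino and 61.0 CPM in pigmented RPC-like cells. The part of either list in the Kcnk1 level was not tested.

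Other K2P genes differed in direction. Kcnk10 (TREK-2) had 23.4 CPM in albino and 22.02 CPM in pigmented RGC-like cells, against 0.829 CPM in albino and 0.497 CPM in pigmented RPC-like cells, a ratio of 28.2 (14.1 to 66.1) in the albino and 44.3 (21.996 to 104) in the pigmented library, whereas its close relative Kcnk2 (TREK-1) was uncalled at 11.1 CPM in albino and 9.84 CPM in pigmented RGC-like cells, against 8.92 CPM in albino and 9.07 CPM in pigmented RPC-like cells. Kcnk10 lies outside the rule for named genes and was added after its values were seen. Kcnk5 (TASK-2) had 0 UMIs in RGC-like cells of both libraries and 3.01 CPM in albino and 2.73 CPM in pigmented RPC-like cells, with 95% upper bounds on the ratio of 0.127 in the albino and 0.173 in the pigmented library. Of the Kir genes, Kcnj13 (Kir7.1), known from pigment and ciliary epithelia, was likewise at 0 UMIs in RGC-like cells, against 1.14 CPM in albino and 1.12 CPM in pigmented RPC-like cells. Kcnj3, a G-protein-gated Kir gene, was low in all 6 classes, with 1.16 and 0.492 CPM in albino and pigmented RGC-like cells and 1.97 and 2.42 CPM in albino and pigmented RPC-like cells.

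Calcium- or sodium-activated potassium channel genes were higher in RGC-like cells in 4 of 6 measured cases, and none was lower. Kcnmb2 and Kcnmb4 encode beta subunits of the large-conductance channel, whose pore gene is Kcnma1. Kcnmb4 had 26.98 CPM in albino and 25.7 CPM in pigmented RGC-like cells, against 8.502 CPM in albino and 9.94 CPM in pigmented RPC-like cells, and overlaps its antisense gene Kcnmb4os2, which had 25.3 CPM in albino and 26.4 CPM in pigmented RGC-like cells, against 15.3 CPM in albino and 16.8 CPM in pigmented RPC-like cells. Kcnmb2 had 13.1 CPM in albino and 11.3 CPM in pigmented RGC-like cells, against 0.311 CPM in albino and 0.311 CPM in pigmented RPC-like cells. Kcnma1 followed at 6.19 CPM in albino and 5.17 CPM in pigmented RGC-like cells, against 1.56 CPM in albino and 1.24 CPM in pigmented RPC-like cells. Kcnn1 (SK1), a small-conductance channel gene, had 12.7 CPM in albino and 9.595 CPM in pigmented RGC-like cells, against 1.14 CPM in albino and 0.746 CPM in pigmented RPC-like cells. Of the antisense genes, Kcnq1ot1, an imprinted RNA, was abundant and lower in RGC-like cells, with 125 CPM in albino and 120.4 CPM in pigmented RGC-like cells, against 253 CPM in albino and 279.99 CPM in pigmented RPC-like cells, a ratio of 0.492 (0.45998 to 0.527) in the albino and 0.4301 (0.401 to 0.461) in the pigmented library.

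Of the 8 calcium channel pore genes, 3 were higher and 1 was lower in RGC-like cells. Cacna1b, the N-type channel of presynaptic terminals, had 31.5 CPM in albino and 27.1 CPM in pigmented RGC-like cells, against 0.518 CPM in albino and 0.373 CPM in pigmented RPC-like cells, a ratio of 60.8 (25.8 to 189) in the albino and 72.6 (32.8 to 199.9) in the pigmented library. The T-type gene Cacna1h had 17.1 CPM in albino and 16.9 CPM in pigmented RGC-like cells, against 1.66 CPM in albino and 2.86 CPM in pigmented RPC-like cells. Cacna1d (Cav1.3, L-type) was lower, with 9.38 CPM in albino and 8.36 CPM in pigmented RGC-like cells, against 50.4 CPM in albino and 55.7 CPM in pigmented RPC-like cells, a ratio of 0.186 (0.148 to 0.232) in the albino and 0.1502 (0.116 to 0.192) in the pigmented library. The P/Q-type gene Cacna1a was uncalled, at 21.6 CPM in albino and 16.4 CPM in pigmented RGC-like cells, against 21.7 CPM in albino and 21.3 CPM in pigmented RPC-like cells, and the R-type gene Cacna1e was low, with 1.26 and 0.492 CPM in albino and pigmented RGC-like cells and 1.66 and 2.49 CPM in albino and pigmented RPC-like cells.

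Of the beta subunit genes, which bring the pore to the membrane, 3 were higher and 1 lower. Cacnb3 had 91.2 CPM in albino and 87.1 CPM in pigmented RGC-like cells, against 16.6 CPM in albino and 15.04 CPM in pigmented RPC-like cells, a ratio of 5.497 (4.64 to 6.54) in the albino and 5.79 (4.997 to 6.73) in the pigmented library. Cacnb1 had 17.8 CPM in albino and 15.6 CPM in pigmented RGC-like cells, against 1.66 CPM in albino and 1.62 CPM in pigmented RPC-like cells. Cacnb2 was lower, at 0.774 CPM in albino and 0.861 CPM in pigmented RGC-like cells, against 2.18 CPM in albino and 2.61 CPM in pigmented RPC-like cells, and lost its call with 1 CPM added. Most genes named Cacng encode partners of AMPA-type glutamate receptors in the brain, Cacng2 (stargazin) and Cacng4 among them. Cacng2 had 31.9 CPM in albino and 26.6 CPM in pigmented RGC-like cells, against 0 UMIs in albino and 3 UMIs in pigmented RPC-like cells, a ratio of at least 103-fold in the albino and 143 (48.1 to 696) in the pigmented library. Cacng4 was already abundant in RPC-like cells, with 125 CPM in albino and 113 CPM in pigmented RGC-like cells, against 59.3 CPM in albino and 51.03 CPM in pigmented RPC-like cells. Cacng7 was uncalled, at 5.705 CPM in albino and 7.01 CPM in pigmented RGC-like cells, against 12.03 CPM in albino and 13.49 CPM in pigmented RPC-like cells.

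**Figure D2:**
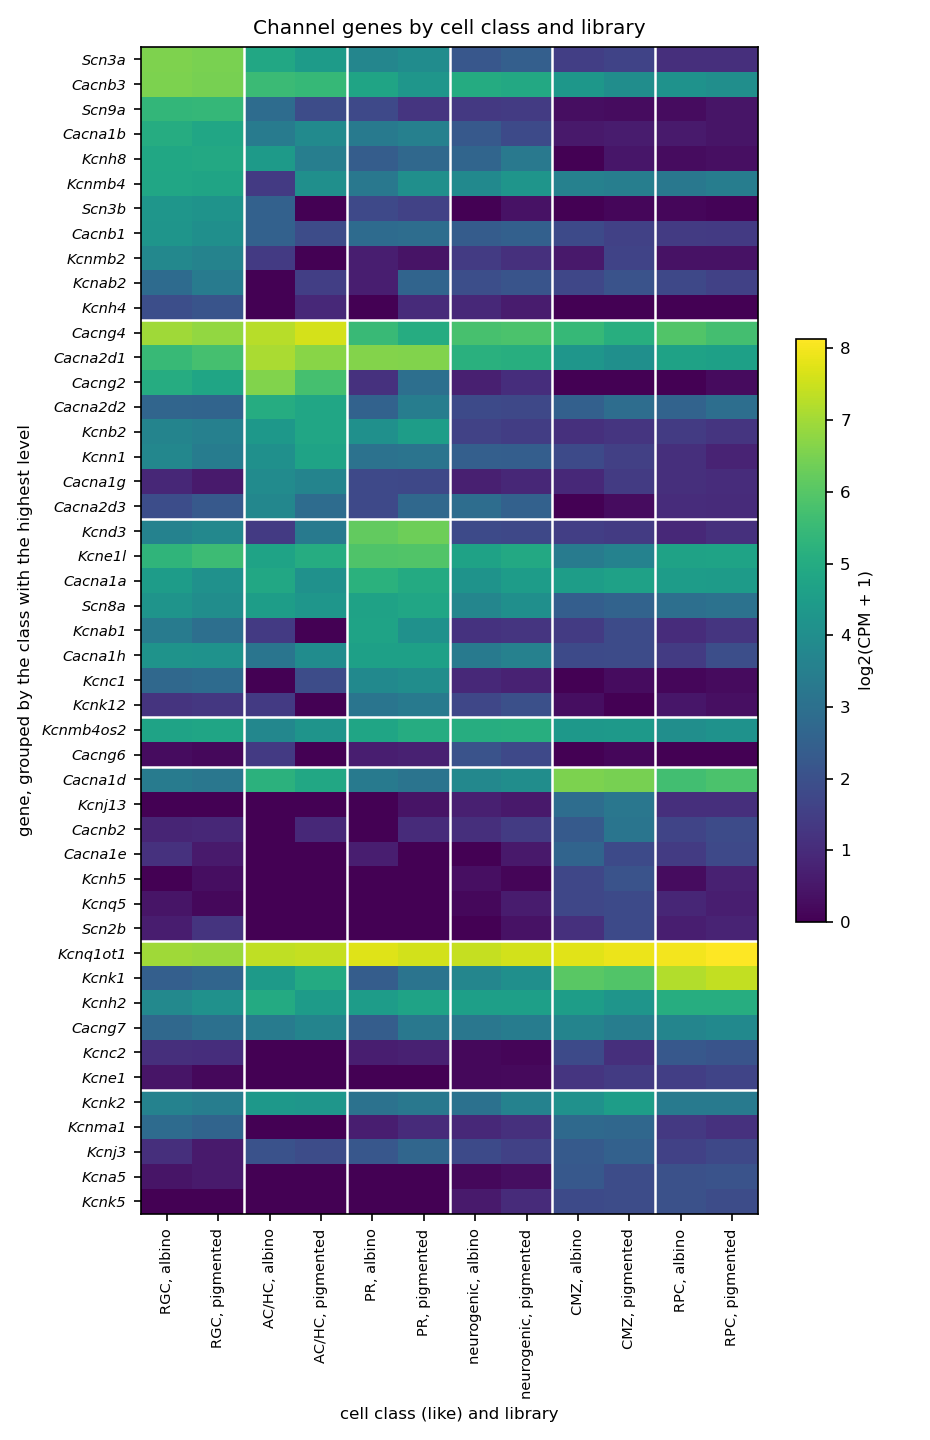
Rows are 47 of the genes named by rule and columns the 6 cell classes (AC/HC, amacrine or horizontal; PR, photoreceptor), albino left of pigmented, and colour is log2(CPM + 1). Blocks group genes by the class with the highest level in both libraries, in the order of the columns, and the last block holds genes whose highest class differed between the libraries. Scn3a and Cacnb3 lead the RGC-like block and Kcnq1ot1 and Kcnk1 the RPC-like block.

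Of the 74 genes with at least 50 UMIs over the 6 classes, 25 (33.8%) had their highest level in RGC-like cells in both libraries, 11 in photoreceptor-like, 8 in amacrine or horizontal-like, 8 in CMZ-like, 6 in RPC-like and 2 in neurogenic-like cells. For the other 14 the highest class differed between the libraries. Of all 13757 genes with as many UMIs, 13% were highest in RGC-like, 11.4% in photoreceptor-like, 11.3% in amacrine or horizontal-like, 9.06% in CMZ-like, 13.4% in RPC-like and 4.01% in neurogenic-like cells, and for 37.8% the class differed.

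**Figure D3:**
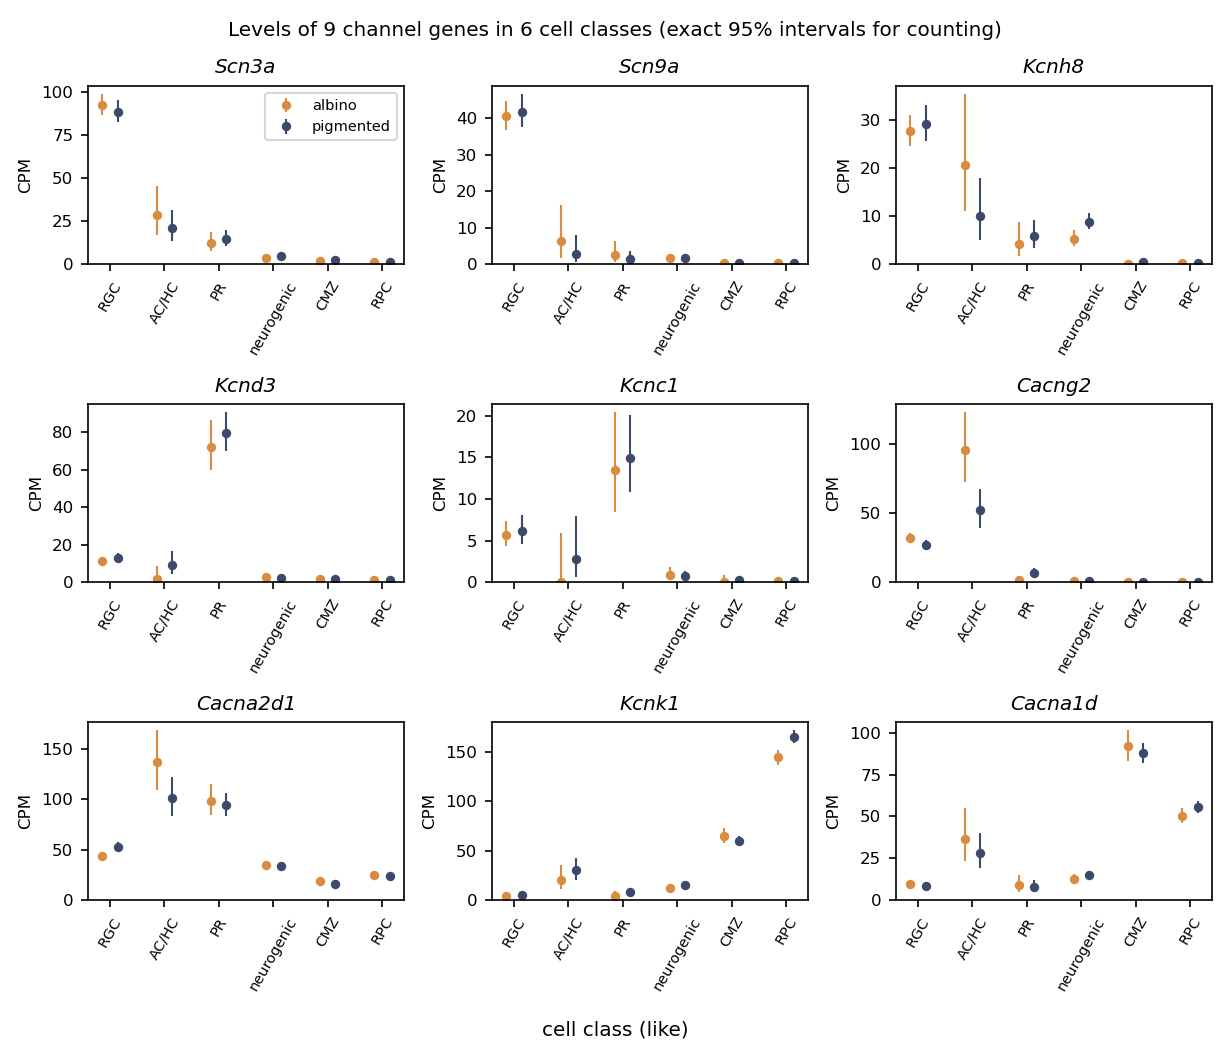
Levels in CPM (y axes, each from 0) of 9 channel genes in the 6 cell classes, with exact 95% Poisson intervals for the albino (orange) and the pigmented library (blue). Scn3a, Scn9a and Kcnh8 peak in RGC-like, Kcnd3 and Kcnc1 in photoreceptor-like, Cacng2 and Cacna2d1 in amacrine or horizontal-like, Kcnk1 in RPC-like and Cacna1d in CMZ-like cells, and the intervals of the leading classes overlap for Kcnh8 in the albino library and for Cacna2d1 in both.

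In amacrine or horizontal-like cells, calcium channel auxiliary genes were among those higher than in RPC-like cells. In this comparison 22 of 50 measured genes were higher and 3 lower, where 13.7% of all genes were higher and 10.8% lower. This class is small (629460 albino and 1095667 pigmented UMIs), so that 1 added UMI weighs more in it. With 1 CPM added, 15 were higher and 9 lower, against 10.3% and 14.4% of all genes. All 3 measured alpha2delta genes, whose products raise calcium channel density at the membrane, were higher under both. This was not particular to the class: in photoreceptor-like against RPC-like cells 3 alpha2delta genes were higher, Cacna2d1 among them, 0 lower and 1 uncalled. Cacna2d1 had 137 CPM in albino and 101 CPM in pigmented amacrine or horizontal-like cells, against 24.9 CPM in albino and 23.5 CPM in pigmented RPC-like cells, and Cacna2d2 31.8 CPM in albino and 27.4 CPM in pigmented amacrine or horizontal-like cells, against 5.08 CPM in albino and 6.71 CPM in pigmented RPC-like cells. Cacna2d3 had 12.7 CPM in albino and 6.39 CPM in pigmented amacrine or horizontal-like cells, against 1.04 CPM in albino and 0.994 CPM in pigmented RPC-like cells.

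Cacng2 was highest in the same class, with 95.3 CPM in albino and 52.02 CPM in pigmented amacrine or horizontal-like cells. Cacng2 UMIs were found in 32.3% of albino and 17.6% of pigmented amacrine or horizontal-like cells after thinning (43.4% and 25.7% before), and in 0 of 119 albino and 0 of 219 pigmented mesenchyme-like cells, with exact upper bounds of 3.05% and 1.67% (1.54% and 0.424% before thinning). Cacng4 had 151 CPM in albino and 195 CPM in pigmented amacrine or horizontal-like cells. The T-type pore gene Cacna1g had 14.3 CPM in albino and 11.9 CPM in pigmented amacrine or horizontal-like cells, against 1.14 CPM in albino and 1.06 CPM in pigmented RPC-like cells, a ratio of 12.5 (4.59 to 33.3) in the albino and 11.2 (5.02 to 24.6) in the pigmented library. Kcnn1 had 15.9 CPM in albino and 25.6 CPM in pigmented amacrine or horizontal-like cells, and Kcnb2 19.1 CPM in albino and 27.4 CPM in pigmented amacrine or horizontal-like cells, each uncalled against RGC-like cells.

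This cluster was led by Ptf1a, Prdm13 and Tfap2b, and also by Vtn and Cldn5, which are on the pericyte and endothelial marker lists. Of 6 pericyte markers 2 were detected in each library, with a sum of 272 CPM in albino and 326 CPM in pigmented cells, against 22.3 and 22.1 CPM in albino and pigmented RPC-like cells. Of 7 endothelial markers 2 were detected in albino and 3 in pigmented cells, summing to 208 CPM and 323 CPM, against 37.7 and 48.2 CPM in albino and pigmented RPC-like cells. Rgs5, Cspg4, Notch3 and Abcc9 of the pericyte list and Pecam1, Tek, Emcn and Tie1 of the endothelial list were at 0 in both libraries. The 12 RGC markers, all detected, summed to 3338 CPM in albino and 3169.8 CPM in pigmented cells of this class, against 84.2 CPM in albino and 61.0 CPM in pigmented RPC-like cells. The 9 markers of the class itself, of which Lhx9 was at 0, summed to 3095 CPM in albino and 2879.5 CPM in pigmented cells. The part of the other markers in the channel gene levels was not tested.

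The sodium channel genes Scn3a, Scn9a and Scn3b were among those higher in RGC-like than in amacrine or horizontal-like cells. Of 61 measured genes 10 were higher and 6 lower in RGC-like cells, where 4.46% and 9.65% of all genes were. The ratio for Scn3a was 3.24 (2.04 to 5.495) in the albino and 4.23 (2.797 to 6.72) in the pigmented library. That for Scn9a was 6.39 (2.48 to 23.6) in the albino and 15.3 (5.18 to 74.4) in the pigmented library, and that for Kcnk10 7.36 (2.02 to 61.2) in the albino and 12.1 (3.29 to 100.4) in the pigmented library. The genes lower in RGC-like cells included Cacna2d2, with ratios of 0.167 (0.0987 to 0.295) in the albino and 0.189 (0.115 to 0.312) in the pigmented library, and Cacna1g, with ratios of 0.0609 (0.0214 to 0.173) in the albino and 0.0415 (0.00985 to 0.134) in the pigmented library.

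Photoreceptor-like cells were high in several potassium channel genes, led by Kcnd3, which encodes the A-type channel Kv4.3. Against RPC-like cells 27 of 58 measured genes were higher and 7 lower, where 11.8% and 11.5% of all genes were. With 1 CPM added 21 were higher and 6 lower, against 9.81% and 11.1%. The 8 markers of the class itself summed to 3610 CPM in albino and 3884 CPM in pigmented photoreceptor-like cells. The 11 neurogenic markers summed to more, 6586 CPM in albino and 6933 CPM in pigmented cells, against 513 CPM in albino and 570 CPM in pigmented RPC-like cells. The 12 RGC markers summed to 2105 CPM in albino and 1935 CPM in pigmented photoreceptor-like cells, against 84.2 CPM in albino and 61.0 CPM in pigmented RPC-like cells. The part of these other lists was not tested. Kcnd3 had 72.2 CPM in albino and 79.6 CPM in pigmented photoreceptor-like cells, against 0.933 CPM in albino and 1.18 CPM in pigmented RPC-like cells, a ratio of 77.4 (39.4 to 173) in the albino and 67.4 (42.2 to 114) in the pigmented library. After thinning, 29.6% of albino and 29.9% of pigmented photoreceptor-like cells carried a Kcnd3 UMI (44.2% and 41.9% before), against 0.8403% of albino and 1.37% of pigmented mesenchyme-like cells (1.54% and 2.12% before). Median depths were 8391.5 and 8049 UMIs in albino and pigmented photoreceptor-like and 12684 and 13267.5 UMIs in albino and pigmented mesenchyme-like cells. The antisense gene Kcnd3os overlaps Kcnd3 and was also highest here, at 4.896 CPM in albino and 10.6 CPM in pigmented photoreceptor-like cells.

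Kcnab1 had 25.1 CPM in albino and 16.3 CPM in pigmented photoreceptor-like cells, against 1.04 CPM in albino and 1.37 CPM in pigmented RPC-like cells, and its exons overlap a gene model on the other strand. Kcnc1 had 13.46 CPM in albino and 14.97 CPM in pigmented photoreceptor-like cells, a ratio to RPC-like cells of 129.9 (20.99 to 5359) in the albino and 80.3 (25.7 to 404) in the pigmented library. Kcnk12 (THIK-2), a K2P gene, had 7.96 CPM in albino and 9.19 CPM in pigmented photoreceptor-like cells, against 0.415 CPM in albino and 0.249 CPM in pigmented RPC-like cells. The T-type gene Cacna1h had 23.9 CPM in albino and 23.5 CPM in pigmented photoreceptor-like cells, and was uncalled against RGC-like cells. Kcne1l had 58.1 CPM in albino and 59.6 CPM in pigmented photoreceptor-like cells, its highest level of the 6 classes.

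Cacna2d4, known in the mouse for its role at the photoreceptor ribbon synapse, had 11.02 CPM in albino and 6.81 CPM in pigmented photoreceptor-like cells and 0 UMIs in RPC-like cells of either library, so the ratio was at least 35.4-fold in the albino and at least 36.5-fold in the pigmented library. Cacna2d4 was added after its values were seen. The photoreceptor-like class consists of cluster 12, led by Neurod4 and Prdm1, and cluster 17, led by Gngt2, Pdc and Lypd1. Ptf1a, on the amacrine or horizontal marker list, was also among the leading genes of cluster 12. Levels of the genes named above in these clusters are given without a count over all genes. Kcnd3 had 121 CPM in albino and 136 CPM in pigmented cells of cluster 17, against 52.9 CPM in albino and 57.1 CPM in pigmented cells of cluster 12. Kcnc1 had 41.1 CPM in albino and 46.5 CPM in pigmented cells of cluster 17, against 2.56 CPM in albino and 2.38 CPM in pigmented cells of cluster 12. Kcnab1 had 77.9 CPM in albino and 50.1 CPM in pigmented cells of cluster 17, against 4.27 CPM in albino and 2.86 CPM in pigmented cells of cluster 12. Kcnd3, Kcnc1 and Kcnab1 thus had higher levels in cluster 17 in both libraries, and Kcne1l was about level, with 62.8 CPM in albino and 52.5 CPM in pigmented cells of cluster 17, against 56.3 CPM in albino and 62.4 CPM in pigmented cells of cluster 12. Kcnk12 had 15.2 CPM in albino and 17.9 CPM in pigmented cells of cluster 17, against 5.12 CPM in albino and 5.71 CPM in pigmented cells of cluster 12. Cacna1h had 28.1 CPM in albino and 32.2 CPM in pigmented cells of cluster 17, against 22.2 CPM in albino and 19.996 CPM in pigmented cells of cluster 12. Cacna2d4 had 36.8 CPM in albino and 20.3 CPM in pigmented cells of cluster 17, against 0.853 CPM in albino and 1.43 CPM in pigmented cells of cluster 12, where cluster 12 held 1 UMI in the albino and 3 UMIs in the pigmented library. The comparison of these clusters was chosen after their values were seen.

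Set against photoreceptor-like cells, RGC-like cells had 24 of 65 measured genes higher and 13 lower, where 8.01% and 12.4% of all genes were. The genes higher in RGC-like cells included Scn9a, with ratios of 16.6 (6.43 to 61.2) in the albino and 30.7 (11.9 to 113) in the pigmented library. Kcnd3 had ratios of 0.155 (0.119 to 0.202) in the albino and 0.161 (0.126 to 0.203) in the pigmented library, the reverse direction. Amacrine or horizontal-like cells had 8 of 37 measured genes higher and 8 lower than photoreceptor-like cells, where 5.85% and 5.29% of all genes were. Cacng4 was among the higher ones, with ratios of 3.38 (2.46 to 4.65) in the albino and 6.17 (4.82 to 7.96) in the pigmented library, and Kcnd3 among the lower, with ratios of 0.0220 (0.000552 to 0.125) in the albino and 0.115 (0.0542 to 0.215) in the pigmented library.

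Neurogenic-like cells, which lie between progenitors and neurons, had Scn3a, Kcnh8 and Cacna1b above their RPC-like levels and well below their RGC-like levels. The class pools clusters 2, 6, 14, 15 and 18. Cluster 2, led by Gal, Dlx1 and Insm2, was the largest, with 305 albino and 533 pigmented cells. Levels are averages over the class and are not given by cluster. By the count with 1 UMI added, 21 of 68 genes were higher than in RPC-like cells and 12 lower, where 7.4% and 10.4% of all genes were. With 1 CPM added, 8 were higher and 6 lower, against 5.23% and 6.71% of all genes, and a finer clustering (resolution 1.6) gave 7 higher. Summed over all channel subunit genes, the level was lower, at 347 CPM in albino and 383 CPM in pigmented neurogenic-like cells, against 486 CPM in albino and 506 CPM in pigmented RPC-like cells. Abundant genes weigh most in this sum. Kcnk1 alone, with levels given above, was lower by about as much as the whole sum in each library, and Cacna1d was lower too. Scn3a had 3.61 CPM in albino and 4.47 CPM in pigmented neurogenic-like cells, against 1.14 CPM in albino and 1.12 CPM in pigmented RPC-like cells. Kcnh8 had 5.28 CPM in albino and 8.77 CPM in pigmented neurogenic-like cells, against 0.207 CPM in albino and 0.249 CPM in pigmented RPC-like cells, and Cacna1b 3.86 CPM in albino and 2.59 CPM in pigmented neurogenic-like cells, against 0.518 CPM in albino and 0.373 CPM in pigmented RPC-like cells. Cacna2d3 had 6.57 CPM in albino and 4.78 CPM in pigmented neurogenic-like cells, against 1.04 CPM in albino and 0.994 CPM in pigmented RPC-like cells. The 12 RGC markers summed to 1933 CPM in albino and 1786 CPM in pigmented neurogenic-like cells, against 84.2 CPM in albino and 61.0 CPM in pigmented RPC-like cells, and their part in these levels was not tested.

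Kcnk12 had 2.32 CPM in albino and 2.98 CPM in pigmented neurogenic-like cells, between its RPC-like and photoreceptor-like levels. Cacng6, a gamma subunit gene, was highest in this class, with 3.22 CPM in albino and 2.51 CPM in pigmented neurogenic-like cells and 0 UMIs in RPC-like cells of either library, so the ratio was at least 10.4-fold in the albino and at least 13.4-fold in the pigmented library. The progenitor genes were already lower. Kcnk1 had a ratio of 0.0857 (0.0689 to 0.105) in the albino and 0.0954 (0.0822 to 0.1101) in the pigmented library. That of Cacna1d was 0.253 (0.202 to 0.315) in the albino and 0.269 (0.229 to 0.314) in the pigmented library. Kcna5, Kcnc2 and Kcne1 each held 1 to 3 UMIs in this class in each library.

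CMZ-like cells had the fewest called genes of the 5 classes set against RPC-like cells. Of 56 measured genes 6 were higher and 5 lower, where 3.6% and 2.49% of all genes were, and with 1 CPM added 3 were higher and 2 lower, against 2.09% and 1.67%. Kcnj13 was among the higher ones, with 6.54 CPM in albino and 8.44 CPM in pigmented CMZ-like cells, against 1.14 CPM in albino and 1.12 CPM in pigmented RPC-like cells, a ratio of 5.74 (2.77 to 12.8) in the albino and 7.54 (4.48 to 13.4) in the pigmented library. Exons of Kcnj13 overlap those of Gigyf2 on the other strand. Of the 9 retinal pigment epithelium (RPE) markers, 6 were detected in albino and 7 in pigmented CMZ-like cells. Their sum was 65.0 CPM in albino and 107.6 CPM in pigmented CMZ-like cells, against 6.22 and 5.66 CPM in albino and pigmented RPC-like cells. The part of these markers in the levels of Kcnj13 and the other genes higher in this class was not tested. Kcnma1 had 5.84 CPM in albino and 5.59 CPM in pigmented CMZ-like cells, against 1.56 CPM in albino and 1.24 CPM in pigmented RPC-like cells. Kcnh5 (EAG2) had 2.34 CPM in albino and 3.27 CPM in pigmented CMZ-like cells, against 0.207 CPM in albino and 0.684 CPM in pigmented RPC-like cells, and Kcnq5 (Kv7.5) 2.34 CPM in albino and 2.53 CPM in pigmented CMZ-like cells, against 0.829 CPM in albino and 0.622 CPM in pigmented RPC-like cells, a call that was lost with 1 CPM added.

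Cacna1d was highest in this class of the 6, with 92.1 CPM in albino and 87.7 CPM in pigmented CMZ-like cells, a ratio to RPC-like cells of 1.83 (1.596 to 2.09) in the albino and 1.58 (1.43 to 1.73) in the pigmented library, below the 2-fold rule. Its exons overlap those of Chdh on the other strand. Cacnb2 had 3.97 CPM in albino and 7.91 CPM in pigmented CMZ-like cells. On the lower side, Kcnk1 had a ratio of 0.4502 (0.394 to 0.512) in the albino and 0.363 (0.331 to 0.398) in the pigmented library, and Kcne1l had 9.35 CPM in albino and 11.2 CPM in pigmented CMZ-like cells, against 24.9 CPM in albino and 25.05 CPM in pigmented RPC-like cells.

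The RGC-like class consists of cluster 3, with Ccer2, Igfbpl1 and Elavl4 among its leading genes, and cluster 8, led by Sncg, Sst and Nrn1. The comparison of these was chosen after the clusters were seen. Of the 6 measured sodium channel pore genes, 3 were higher in cluster 8 and 3 were uncalled, and the beta subunit gene Scn3b was higher. Of 58 measured genes 11 were higher and 6 lower, where 4.71% and 2.63% of all genes were. Scn3b had 33.8 CPM in albino and 35.4 CPM in pigmented cells of cluster 8, against 6.81 CPM in albino and 5.77 CPM in pigmented cells of cluster 3, a ratio of 4.97 (3.48 to 7.23) in the albino and 6.13 (4.04 to 9.58) in the pigmented library. Scn9a had 69.6 CPM in albino and 72.4 CPM in pigmented cells of cluster 8, against 18.6 CPM in albino and 22.9 CPM in pigmented cells of cluster 3, a ratio of 3.75 (3.01 to 4.71) in the albino and 3.16 (2.52 to 3.99) in the pigmented library. Scn3a, in contrast, was uncalled, with 110.2 CPM in albino and 112 CPM in pigmented cells of cluster 8, against 79.5 CPM in albino and 74.3 CPM in pigmented cells of cluster 3. Kcnh7 (ERG3) had 13.7 CPM in albino and 10.9 CPM in pigmented cells of cluster 8, against 2.38 CPM in albino and 2.79 CPM in pigmented cells of cluster 3.

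Kcne1l was lower in cluster 8, with 15.2 CPM in albino and 17.4 CPM in pigmented cells of cluster 8, against 57.9 CPM in albino and 65.5 CPM in pigmented cells of cluster 3, a ratio of 0.263 (0.1997 to 0.342) in the albino and 0.265 (0.195 to 0.355) in the pigmented library. Kcnab1 had ratios of 0.168 (0.08099 to 0.316) in the albino and 0.3095 (0.133 to 0.639) in the pigmented library. The T-type gene Cacna1h and the alpha2delta gene Cacna2d1 were lower as well. Cacna1h had ratios of 0.422 (0.292 to 0.599) in the albino and 0.453 (0.292 to 0.685) in the pigmented library, and Cacna2d1 ratios of 0.482 (0.388 to 0.596) in the albino and 0.423 (0.331 to 0.536) in the pigmented library. Cluster 8 was deeper, with a median of 16689.5 UMIs per cell against 13169 in cluster 3.

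**Figure D4:**
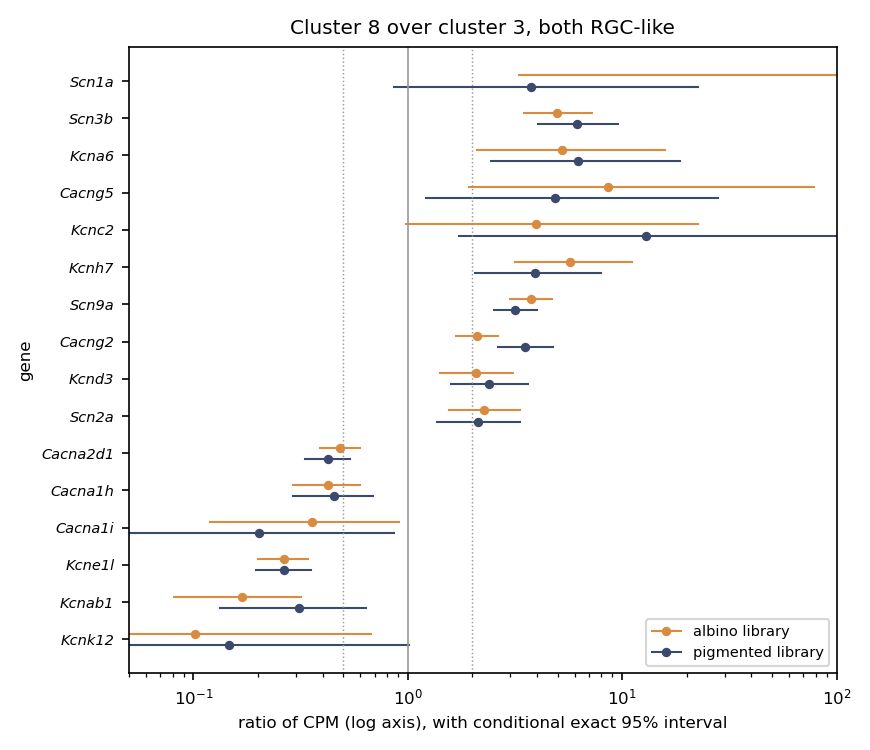
Ratios of CPM in cluster 8 over cluster 3 (log axis) for 16 channel genes past 2-fold in both libraries, with conditional exact 95% intervals, albino in orange and pigmented in blue. Scn3b and Scn9a lie above 2 in both libraries and Kcne1l and Kcnab1 below 0.5, and a line that reaches the frame runs on beyond it.

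Within each class, few channel genes were over 1.5-fold apart between the albino and the pigmented library. In RGC-like cells 45 genes had at least 50 UMIs, and 0 were over 1.5-fold higher and 1 over 1.5-fold lower in the albino library, where 1.25% and 1.82% of all genes were. The lower one was Kcnab2, with 6.19 CPM in albino and 9.35 CPM in pigmented RGC-like cells, a ratio of 0.662 (0.467 to 0.935). The interval of 5 other genes lay to one side of 1 in RGC-like cells: Cacna1a at 1.32 (1.06 to 1.65), Cacng2 at 1.201 (1.01 to 1.43), Cacng4 at 1.11 (1.02 to 1.21), Kcne1l at 0.837 (0.727 to 0.965) and Cacna2d1 at 0.826 (0.722 to 0.945). The lead genes Scn3a and Scn9a had albino over pigmented ratios of 1.04 (0.947 to 1.15) and 0.971 (0.8396 to 1.12).

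In RPC-like cells 27 genes were measured, with 0 higher and 1 lower, where 0.775% and 1.44% of all genes were. The lower one was Cacna1h, with 1.66 CPM in albino and 2.86 CPM in pigmented RPC-like cells, from 16 albino and 46 pigmented UMIs, a ratio of 0.5802 (0.307 to 1.04) whose interval includes 1. Kcnk1 had an albino over pigmented ratio of 0.874 (0.818 to 0.933), and Kcnq1ot1 one of 0.904 (0.8601 to 0.9497). In amacrine or horizontal-like cells 1 of 8 measured genes was higher, Cacng2 at 1.83 (1.25 to 2.68), and 0 lower, where 3.42% and 3.44% of all genes were.

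In photoreceptor-like cells 1 of 16 was higher, Kcnab1 at 1.54 (0.987 to 2.38), and 1 lower, Kcnmb4 at 0.547 (0.278 to 1.01), where 2.41% and 2.67% of all genes were. In neurogenic-like cells 0 of 29 were higher and 2 lower, Kcnk2 at 0.644 (0.464 to 0.883) and Kcnh8 at 0.602 (0.4101 to 0.868), where 0.875% and 1.74% of all genes were. In CMZ-like cells 0 of 21 were higher and 1 lower, Cacnb2 at 0.502 (0.278 to 0.859), where 2.88% and 2.08% of all genes were. None of these 8 genes passed in more than 1 class.

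**Figure D5:**
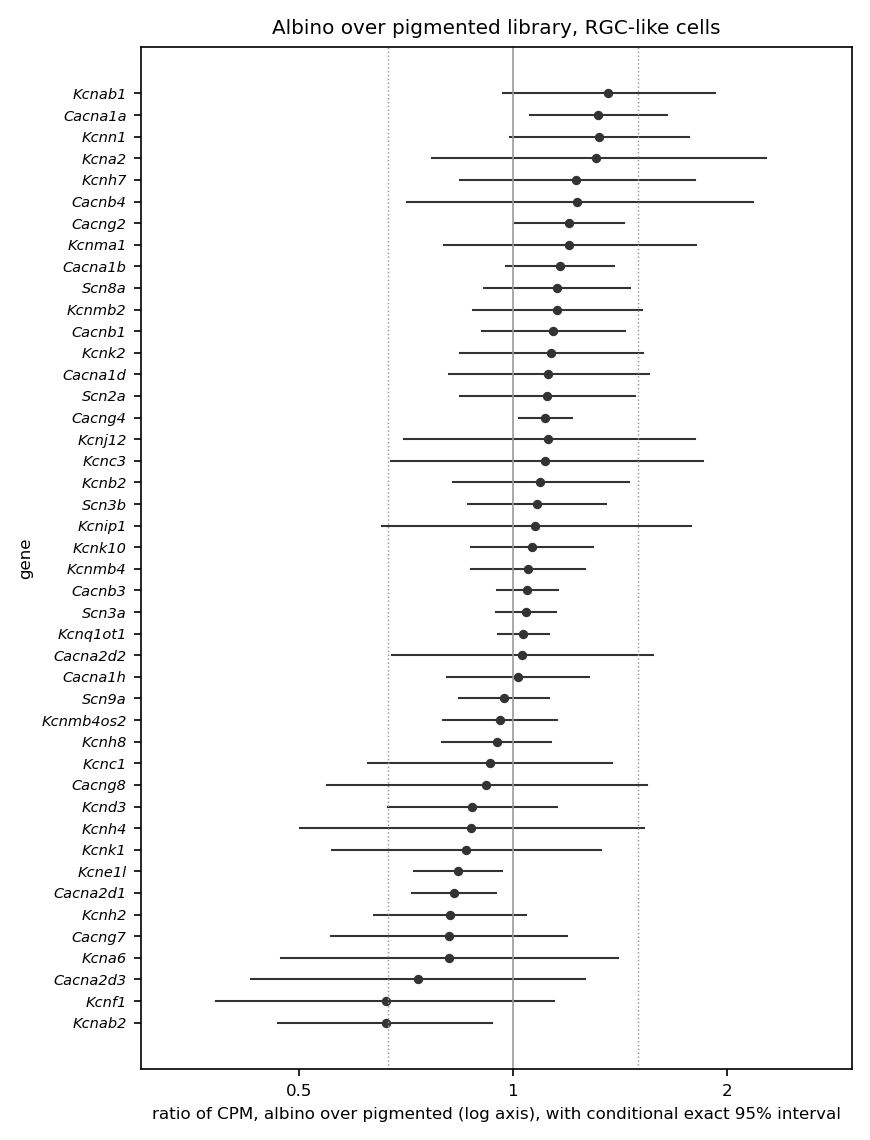
Ratios of CPM in the albino over the pigmented library (log axis) within RGC-like cells for 44 channel genes, with conditional exact 95% intervals. Dotted lines mark 1.5-fold either way, and only Kcnab2 passes one of them by the call rule.

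A list of 37 other genes of excitability, none of them a member, was set beside the channel genes, and 32 were measured. In RGC-like against RPC-like cells 11 were higher and 10 lower, where 15.4% and 21.3% of all genes were. Rest encodes a repressor of neuronal genes that binds RE1 sites, and it had 1.74 CPM in albino and 1.97 CPM in pigmented RGC-like cells, against 76.1 CPM in albino and 78.9 CPM in pigmented RPC-like cells. It was intermediate in neurogenic-like cells, at 17.1 CPM in albino and 16.2 CPM in pigmented neurogenic-like cells. Its cofactor gene Rcor2 was uncalled, at 86.9 CPM in albino and 99.9 CPM in pigmented RGC-like cells, against 48.9 CPM in albino and 52.9 CPM in pigmented RPC-like cells.

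Of the sodium channel partners, Fgf12 had 40.9 CPM in albino and 28.05 CPM in pigmented RGC-like cells, against 3.84 CPM in albino and 3.05 CPM in pigmented RPC-like cells, and Fgf14 2.42 CPM in albino and 2.58 CPM in pigmented RGC-like cells, against 12.1 CPM in albino and 11.9 CPM in pigmented RPC-like cells, so that these relatives differed in direction. Ank3, the ankyrin of the axon initial segment, was uncalled with 294 CPM in albino and 290.4 CPM in pigmented RGC-like cells, against 145 CPM in albino and 151 CPM in pigmented RPC-like cells. The cation channel gene Hcn4 was highest of the 6 classes in amacrine or horizontal-like cells, at 36.5 CPM in albino and 31.03 CPM in pigmented amacrine or horizontal-like cells.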

How the data were processed

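Cells from peripheral retina of E13.5 embryos were profiled by a droplet 3′ method, as 1 albino and 1 pigmented library of 3 pooled embryos each. The values deposited by the authors are raw UMI counts for each gene in each barcode. Cell Ranger 2.1.1 and mm10 are named in the submitters' processing notes, and Cell Ranger 5.0.1 per the file headers. Barcodes start at 501 albino and 500 pigmented UMIs, so a selection preceded deposit. The sources used here do not say whether reads were counted by strand. Total depth was 46271969 albino and 69965728 pigmented UMIs.

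Barcodes under 500 genes or over 10% mitochondrial UMIs were left out. Doublets were scored per library with Scrublet in Scanpy. The automatic thresholds called 4 albino and 168 pigmented barcodes, so 1 score threshold of 0.25 was used for both, chosen after seeing the data. It removed 56 albino (1.52%) and 146 pigmented barcodes (2.40%). The 2000 most variable genes, without channel, mitochondrial, ribosomal and haemoglobin genes, gave 30 components. A shared-neighbour graph (15 neighbours) was clustered by Leiden at resolution 1.0. A cluster took the class whose markers led by at least 0.3 (mean log2 fold, 10 CPM added), with at least 3 markers in 10% of cells. Unnamed clusters hold 419 albino and 967 pigmented cells. Free RNA was not removed.

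UMIs were summed per class and library, and ratios have conditional exact 95% intervals, levels exact Poisson and shares exact Clopper-Pearson intervals. Genes had to reach 20 UMIs for classes, or 50 between libraries. UMI intervals cover counting error only. Named genes are the first 2 by UMIs of each family, the 10 highest and 10 lowest RGC-like over RPC-like ratios, the first 5 each way for the other classes, and genes past 1.5-fold between libraries in RGC-like or RPC-like cells, 49 in all, of which some are not reported here. Genes named outside this rule, such as Kcnk10, Scn2a, Cacna2d4 and Kcnh7, were chosen after their values were seen. The members, lists and tests were chosen with earlier results of these data known. Gene positions and overlaps come from an annotation of GRCm38, the same assembly as mm10. Scanpy 1.11.5 and leidenalg 0.10.2 were used for clustering and SciPy 1.17.1 for intervals, with scikit-learn 1.9.0, pandas 2.3.3 and NumPy 2.4.6 under Python 3.11.15, and figures were drawn with matplotlib 3.10.9.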

Additional observations from a re-analysis of the deposited data

How the results depend on the processing

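No paired analysis was possible because each group has 1 library. The counts of 41 higher and 11 lower genes in RGC-like against RPC-like cells moved by less than 1.5 times under all 17 settings tried, 3 of them chosen after seeing the data (1 CPM added, and each library alone). The count of higher genes in amacrine or horizontal-like cells (22) was 12 with a minimum of 50 UMIs and 60 with none. That in photoreceptor-like cells (27) was 15 and 44 under the same limits. That in neurogenic-like cells (21) was 7 at resolution 1.6, 10 with a minimum of 50 UMIs, 12 with cells thinned to 1 depth and 8 with 1 CPM added. That in CMZ-like cells (6) was 11 with no minimum of UMIs, 3 with 1 CPM added, and 11 in the albino and 11 in the pigmented library alone. Between the libraries, the 1 gene in RGC-like cells became 2 with scaling that left out mitochondrial, ribosomal and haemoglobin genes, 3 with thinned cells, 20 with no minimum of UMIs, 0 with 5 UMIs added and 0 with 1 CPM added. The 1 gene in RPC-like cells became 2 with a minimum of 1000 genes per cell, with doublets kept, at resolutions 0.6 and 1.6, with every cell weighted equally and with the highest cell left out. It became 0 with channel genes allowed in clustering, with a minimum of 100 UMIs, with 5 UMIs added, with thinned cells and with 1 CPM added, and 28 with no minimum. The causes were not tested. Of the log2 ratios of single named genes, 2142 stayed within their 95% counting interval and 63 did not, 27 of these with 1 CPM added. No called value changed direction under these settings. Amacrine or horizontal-like cells held 629460 albino and 1095667 pigmented UMIs, so that 3 UMIs there amount to several CPM. Low levels in this class are the least certain of those given for the 6 classes. RPE-like and macrophage-like cells, described below, held fewer UMIs still.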

Other observations

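Several channel genes had their highest levels outside the retinal classes. Kcnq5 (Kv7.5) stood at 58.03 CPM in albino and 70.9 CPM in pigmented RPE-like cells (retinal pigment epithelium), of which there were 16 albino and 45 pigmented cells. Kcne1 was also highest there, with 13.7 CPM in albino and 9.14 CPM in pigmented RPE-like cells. RPE-like cells held only 292934 albino and 437464 pigmented UMIs, so these Kcne1 levels rest on a few UMIs in each library. Macrophage-like cells, 29 albino and 26 pigmented, carried the K2P genes Kcnk13 (THIK-1), known from microglia, and Kcnk6 (TWIK-2). Kcnk13 had 38.5 CPM in albino and 22.03 CPM in pigmented macrophage-like cells, and Kcnk6 had 24.5 CPM in albino and 22.03 CPM in pigmented macrophage-like cells. Macrophage-like cells held 285870 albino and 227001 pigmented UMIs, so these levels rest on few UMIs as well. Over all kept cells Kcnk13 had 15 albino and 8 pigmented UMIs, and Kcnk6 had 8 albino and 12 pigmented UMIs. In mesenchyme-like cells the accessory gene Kcne3 had 16.7 CPM in albino and 15.7 CPM in pigmented mesenchyme-like cells, the T-type gene Cacna1g 33.97 CPM in albino and 25.6 CPM in pigmented mesenchyme-like cells and Kcnk2 35.7 CPM in albino and 35.7 CPM in pigmented mesenchyme-like cells. These genes were picked after their values were seen.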
